A study of Mus musculus with 43 samples.

Results

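The genes described here are 100 genes whose RNA in irradiated mouse intestinal organoids was highest after 6 h of TGFB1 and lower before it and at 15 and 24 h. They were chosen by their single-cell counts: unique molecular identifiers (UMIs) were summed per symbol and divided by the library's total to give CPM, over the cells of each library with at most 20% mitochondrial UMIs. Of 32904 symbols with a UMI, 7527 were highest at 6 h, 4160 of them after pseudogenes, Gm-numbered genes and small RNAs were dropped by name. The 100 with the highest ratio of (CPM at 6 h + 5) to (CPM at 0 h + 5) were taken. The ratio ran from 3.30 for Ddit4 to 1.399 for Ccl28, with a median of 1.55. At the edge of the list Ccl28, a chemokine, stood at 31.4 CPM at 0 h and 45.9 CPM at 6 h, and Prdm16, a transcriptional regulator just outside it, at 44.7 and 64.5 CPM with a ratio of 1.3986. The values of the 4 single-cell libraries therefore chose the genes, are given as a description, and carry no test.

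All organoids were wild type and of strain C57BL/6. The single-cell libraries came from day 8 (D8) organoids irradiated with 4 Gy on day 4. These organoids were given vehicle for 24 h (called 0 h) or 1 ng/mL TGFB1 for 6, 15 or 24 h before collection, with 1 library per time. Vehicle was thus matched in length of treatment to the 24 h library only. At 6 and 15 h, TGFB1 and the time since its addition cannot be told apart. The bulk RNA-seq libraries, which the choice of genes did not use, came from organoids that received vehicle or 2 ng/mL TGFB1 for 24 h from day 6, with 3 libraries per group. They were collected at D7 without irradiation (D7 non-IR), at D7 after 4 Gy on day 4 (D7 IR) or at D11 after 4 Gy on day 4 (D11 IR). A further 3 single-cell libraries came from Ki67-RFP+ crypt cells sorted from mice of strain Mki67tm1.1Cle/J, 1 without irradiation and 2 taken 56 h after 12 Gy to the whole body. Doses and cultures therefore differed between the single-cell and the bulk experiments. The labels do not say whether replicate libraries came from separate cultures or animals, so p-values measure the spread between these libraries, which may be technical.

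TGFB1 binds a pair of receptor kinases that phosphorylate SMAD2 and SMAD3, which enter the nucleus with SMAD4 and change transcription within hours. Among the genes they induce are inhibitors of the same pathway, so that part of the response is transient. In intestinal epithelium the ligand is known for restraining proliferation and, after injury, for inducing a regenerative state marked by Clu, Ly6a and Anxa1.

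Between 2218 and 4283 cells per time were kept, with a median of 6709 to 10441 UMIs per cell, and no more than 1 barcode was shared by any pair of libraries. The labelled intestinal epithelium was present, with 10 enterocyte markers at a sum of 22231 to 26364 CPM and 7 stem cell markers at 2405 to 3010 CPM. The immune markers Ptprc, Cd3e, Tyrobp and Cd79a were each under 1 CPM at every time. With Lyz2 and Cd68, which were not, the 6 immune markers summed to 2.56, 2.24, 1.60 and 1.48 CPM at 0, 6, 15 and 24 h. The 8 markers of the regenerative state summed to 61.7, 121, 499 and 1114 CPM at 0, 6, 15 and 24 h, and 7 cycling markers to 627, 738, 444 and 350 CPM. The 6 h library thus preceded most of the difference in regenerative markers. In bulk, the same regenerative markers summed to 304 to 339 FPKM in D7 IR vehicle libraries and 4640 to 5050 FPKM with TGFB1, and the cycling markers to 660 to 666 and 150 to 187 FPKM. Their part in the results below was not tested.

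At 6 h the 100 genes ranged from 5.98 to 971 CPM, with 15 under 10 CPM and 23 at 100 CPM or above. Of the 100, 32 were at least 2-fold above their 0 h level. Their later course split them. At 24 h, 24 genes were at or below their 0 h level, 34 had kept up to 50% of the 6 h rise and 42 had kept more. These levels are over all cells of a library, and the mix of cells differed between the times, as given with the clusters below. The median share of the rise left was 64.0% at 15 h and 44.3% at 24 h. Levels were successively lower from 6 to 15 to 24 h for 71 genes, whereas 29 stood higher at 24 h than at 15 h. For 9 genes (Lrrc58, Rps12l1, Defa31, Ceacam2, Sap18b, Defa3, Rpl6l, Defa42 and Ndufb4c), over 50% of the UMIs at 6 h were in fractional entries, which arise when a UMI is shared between gene copies, so these are uncertain.

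**Figure D1:**
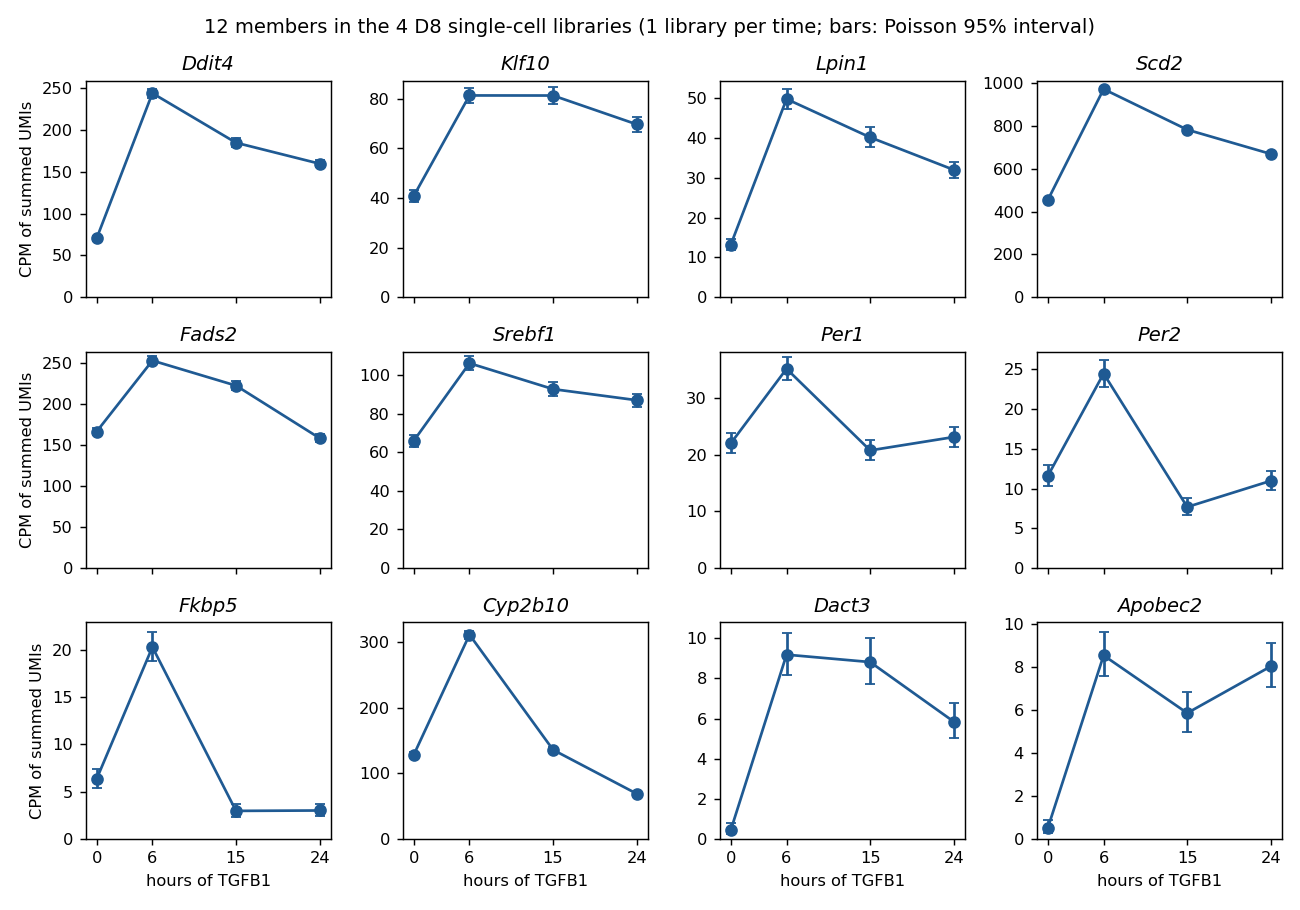
CPM (vertical axes) against hours of TGFB1 (horizontal axes) for 12 of the 100 genes, 1 library per time, with exact Poisson 95% intervals that cover counting error only. Fkbp5, Per1, Per2 and Cyp2b10 were back at or near their 0 h level by 15 h, whereas Klf10, Dact3 and Apobec2 kept over 50% of their rise at 24 h.

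**Figure D2:**
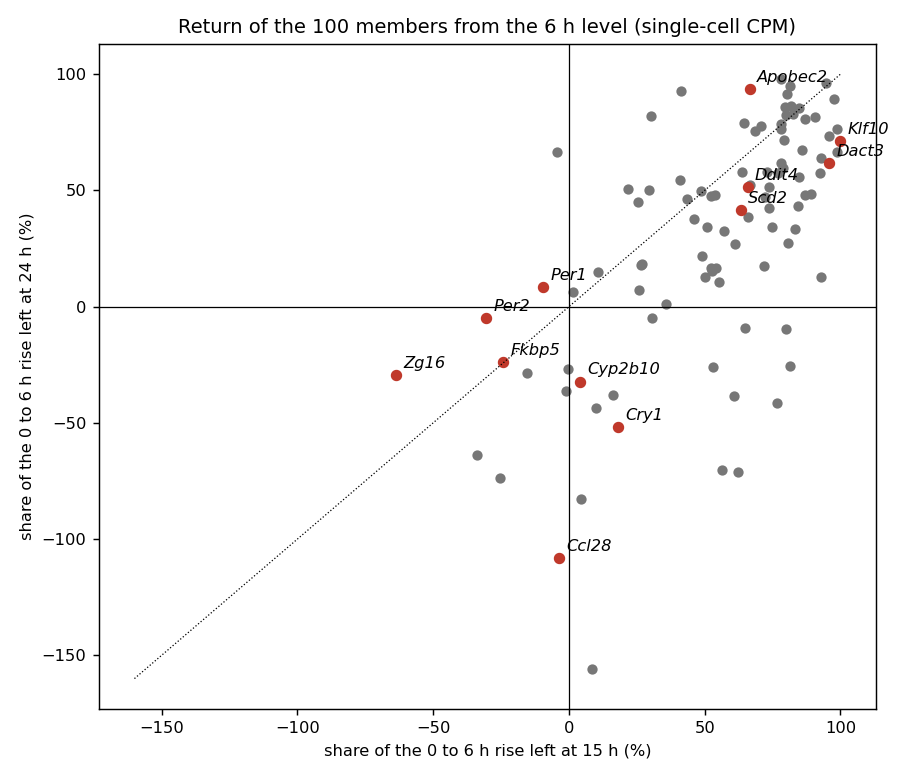
Share of the 6 h rise left at 15 h (horizontal axis, percent) against that left at 24 h (vertical axis, percent), with 1 point for each of the 100 genes and a dotted line where both are equal. Fkbp5, Per2, Cry1 and Zg16 lie below 0% at 24 h, and Apobec2, Klf10 and Dact3 lie above 50%.

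Among genes of the TGFB pathway itself, 1 of the 16 feedback genes and SMAD partners with at least 5 CPM was among the 100. This was Klf10, a zinc-finger repressor induced early by TGFB1, with 40.8, 81.3, 81.2 and 69.6 CPM at 0, 6, 15 and 24 h. The other feedback genes were mostly still higher later: Skil, a SMAD co-repressor, had 28.01, 83.8, 96.0 and 101 CPM, and Smad7, the inhibitory SMAD, 14.7, 30.2, 37.6 and 40.5 CPM. Over the 16 genes 13 were higher at 6 h than at 0 h, and the median log2 difference from 0 h was 0.25, 0.50 and 0.63 at 6, 15 and 24 h. For all 9710 genes at that level the median at 6 h was 0.02, with 5472 higher. Smad5, a SMAD of the BMP branch, was among the 100 with 19.5, 29.5, 29.4 and 26.1 CPM.

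A few genes were almost silent in the vehicle library. Dact3, of a family of Wnt pathway antagonists, had 12 UMIs at 0 h and 298, 232 and 179 UMIs later, or 0.439, 9.19, 8.82 and 5.84 CPM. Apobec2, of the APOBEC family, had 0.512, 8.54, 5.86 and 8.03 CPM. Tnfsf13b, which encodes the B cell survival factor BAFF, had 0.66, 6.51, 6.43 and 5.13 CPM. These 3 stood out at the start of the list by their fold rather than their level, and kept most of it to 24 h. The 250 bases before their RefSeq starts (GRCm38.p6) are shown. Capitals mark matches, on either strand, to the SMAD-binding letters CAGACA or GGCGCC or the AP-1 letters TGANTCA. Each printed promoter was taken because it holds such a match, so the matches follow from that choice and say nothing of binding. Apobec2 (chr17:48432729-48432978, minus strand) holds CAGACA 166 bases before the start, Dact3 (chr7:16875067-16875316, plus strand) holds GGCGCC 18 bases before it, and Tnfsf13b (chr8:10006383-10006632, plus strand) holds CAGACA at 136 and TGANTCA at 127 bases before it.
Apobec2: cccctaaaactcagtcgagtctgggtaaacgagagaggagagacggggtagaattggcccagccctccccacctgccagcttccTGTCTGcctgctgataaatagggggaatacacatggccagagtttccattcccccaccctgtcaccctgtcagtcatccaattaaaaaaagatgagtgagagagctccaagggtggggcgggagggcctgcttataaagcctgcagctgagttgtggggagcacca
Dact3: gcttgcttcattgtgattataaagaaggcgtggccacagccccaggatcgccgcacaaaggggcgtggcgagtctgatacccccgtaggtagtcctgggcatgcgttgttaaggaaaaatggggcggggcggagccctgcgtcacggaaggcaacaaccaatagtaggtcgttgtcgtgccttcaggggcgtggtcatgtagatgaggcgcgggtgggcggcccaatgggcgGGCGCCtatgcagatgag
Tnfsf13b: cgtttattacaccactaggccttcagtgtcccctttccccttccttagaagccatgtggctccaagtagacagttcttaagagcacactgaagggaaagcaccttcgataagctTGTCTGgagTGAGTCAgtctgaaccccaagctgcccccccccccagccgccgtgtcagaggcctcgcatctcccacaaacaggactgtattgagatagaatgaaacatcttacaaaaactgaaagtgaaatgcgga

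Ddit4 led the list. It encodes an inhibitor of mTORC1 that is induced by stress and by glucocorticoids, and it had 70.5, 244, 185 and 160 CPM. After thinning every cell to 2000 UMIs, which left out 6 cells, 11.6, 31.4, 27.0 and 22.8% of cells at 0, 6, 15 and 24 h held a Ddit4 UMI, against 36.4, 57.7, 56.7 and 60.9% unthinned. Over the integrated stress response list, Ddit4 included, 2 of 20 genes were higher at 6 h, and the median log2 difference was -0.49.

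Of the gene lists used here, that for fatty acid synthesis held the most of the 100 genes. Lpin1, a phosphatidate phosphatase, had 13.2, 49.7, 40.1 and 31.9 CPM. Scd2, a desaturase that makes monounsaturated fatty acids, was the most abundant of the 100 with 454, 971, 782 and 669 CPM. Srebf1, which encodes the transcription factor SREBP1, had 66.0, 106, 92.8 and 87.0 CPM. The elongase Elovl6 had 76.8, 134, 122 and 111 CPM, the desaturase Fads1 63.7, 105, 85.2 and 70.6 CPM, and its neighbour in the pathway Fads2 167, 254, 223 and 159 CPM. Fads2 was thus below its 0 h level at 24 h, while Scd2, Srebf1 and Elovl6 were above theirs. Of 22 genes listed for fatty acid synthesis and desaturation, 20 were higher at 6 h and 6 were among the 100, with medians of 0.39, 0.35 and 0.28 (log2) at 6, 15 and 24 h. All 11 genes of a list of sterol synthesis steps were higher at 6 h, and 3 of them were among the 100: Acat2, which condenses acetyl-CoA (76.9, 116, 87.0 and 79.7 CPM), Pmvk, phosphomevalonate kinase (50.5, 87.0, 85.4 and 77.2 CPM), and Nsdhl, a sterol dehydrogenase (48.3, 72.8, 61.6 and 52.3 CPM). Of all 9710 genes with at least 5 CPM, 5472 were higher at 6 h. The fatty acid and sterol lists were drawn up after the 100 genes had been seen, so their counts of members follow in part from that choice. Their members were also chosen for being higher at 6 h. The counts of genes higher at 6 h and the medians therefore follow in part from the choice too.

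Several clock genes and a glucocorticoid-responsive gene were back at or below their 0 h level by 15 or 24 h. Fkbp5, a co-chaperone of the glucocorticoid receptor and one of its targets, had 6.33, 20.3, 2.95 and 2.99 CPM. Per1, Per2 and Cry1 encode the repressors of the circadian clock. Per2 had 11.6, 24.5, 7.68 and 11.0 CPM, Per1 22.01, 35.2, 20.8 and 23.1 CPM, and Cry1 12.9, 22.5, 14.6 and 7.93 CPM. Sgk1, a kinase induced by glucocorticoids, kept part of its rise with 7.02, 13.7, 10.3 and 10.4 CPM. Over the whole clock list, these 3 included, 7 of 13 genes were higher at 6 h and the median log2 difference was 0.06. Nr1d1, a clock repressor, had 34.5, 16.8, 17.6 and 48.4 CPM, Dbp, a clock-driven activator, 15.9, 9.56, 2.02 and 12.5 CPM, and Arntl, which encodes the activator BMAL1, 15.9, 19.95, 29.4 and 11.3 CPM. Of 12 glucocorticoid-responsive genes 8 were higher at 6 h, 4 of them among the 100, where 5472 of all 9710 genes were higher. The common target Tsc22d3 had 50.0, 51.0, 45.4 and 38.8 CPM. Over the 12 genes the median log2 difference from 0 h was 0.27, -0.10 and -0.12 at 6, 15 and 24 h. Summed over the glucocorticoid list, CPM were lower at 6 h than at 0 h, with 22397, 10470, 10677 and 13513 at 0, 6, 15 and 24 h. Such a sum is weighted to the most abundant genes of the list. Both lists were drawn up after the 100 genes had been seen, and their members were chosen for being higher at 6 h. The labels used here give no clock time for any collection.

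The starts of 4 of these genes are shown with capitals for CACGTG, the E-box that clock activators bind, for CAGACA, and for the glucocorticoid response element, a palindrome bound by the glucocorticoid receptor. Fkbp5 (chr17:28486150-28486399, minus strand) holds CAGACA at 173 and CACGTG at 169 bases before the start, overlapping by 2 bases. Per1 (chr11:69098699-69098948, plus strand) holds CAGACA at 204 and CACGTG at 166 bases before it. Cry1 (chr10:85185055-85185304, minus strand) holds CACGTG at 60 bases, and Sgk1 (chr10:21993640-21993889, plus strand) holds CACGTG at 246 and the glucocorticoid response element at 188 bases. These are matches of letters in RefSeq promoters of GRCm38.p6 and say nothing of binding. Each printed promoter was taken because it holds CACGTG or, for Sgk1, the glucocorticoid response element, so the matches follow from that choice. Per2 is not shown and was not among the genes in which CACGTG was found.
Fkbp5: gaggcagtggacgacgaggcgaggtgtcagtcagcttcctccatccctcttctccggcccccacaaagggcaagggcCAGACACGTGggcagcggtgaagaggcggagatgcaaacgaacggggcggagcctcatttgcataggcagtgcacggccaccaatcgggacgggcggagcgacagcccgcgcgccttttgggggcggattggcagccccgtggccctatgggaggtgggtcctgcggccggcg
Per1: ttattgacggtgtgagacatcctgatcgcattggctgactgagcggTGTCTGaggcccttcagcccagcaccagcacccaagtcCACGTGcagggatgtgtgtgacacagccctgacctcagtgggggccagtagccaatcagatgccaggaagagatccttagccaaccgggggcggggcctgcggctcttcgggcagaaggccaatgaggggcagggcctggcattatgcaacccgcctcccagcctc
Cry1: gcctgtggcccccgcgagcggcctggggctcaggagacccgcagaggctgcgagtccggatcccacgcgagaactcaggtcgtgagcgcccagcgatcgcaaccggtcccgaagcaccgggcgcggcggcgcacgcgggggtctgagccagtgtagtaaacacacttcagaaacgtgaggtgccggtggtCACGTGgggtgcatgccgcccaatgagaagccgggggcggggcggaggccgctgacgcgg
Sgk1: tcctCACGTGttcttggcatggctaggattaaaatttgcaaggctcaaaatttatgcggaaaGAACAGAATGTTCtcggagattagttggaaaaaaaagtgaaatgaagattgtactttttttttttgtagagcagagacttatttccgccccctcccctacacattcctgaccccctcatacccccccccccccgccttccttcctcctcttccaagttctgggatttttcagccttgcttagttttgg

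RefSeq promoters of 250 bases before to 50 after the start were matched for 76 of the 100 genes (101 promoters) and compared with all 32851. CAGACA was found on either strand in 24 (23.8%) against 21.0% of all, GGCGCC in 21 (20.8%) against 11.9%, and TGANTCA in 12 (11.9%) against 7.81%. CACGTG was found in 11 (10.9%) against 7.15%, and the glucocorticoid response element in 1 (0.99%) against 0.475%. The palindrome GTCTAGAC, bound by SMADs, and TGACGTCA, bound by CREB and ATF factors, were in 0 of the 101, against 0.213% and 1.79% of all. CACGTG and the glucocorticoid response element were searched after the genes had been seen.

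Absorptive and secretory genes were also among the 100. Cyp2b10, a drug-metabolising cytochrome P450, had 128, 312, 136 and 68.8 CPM, and was thus below its 0 h level at 24 h. Dmbt1, a secreted mucosal scavenger receptor, had 441, 688, 572 and 377 CPM. Zg16, a lectin-like protein secreted by goblet cells, had 7.06, 12.5, 3.57 and 5.45 CPM, and Muc4, a membrane mucin, 6.55, 15.1, 12.4 and 13.0 CPM. The 7 goblet markers, of which Zg16 is one, summed to 456, 451, 318 and 438 CPM. Of genes of cell adhesion and signalling, Itga6, the laminin receptor subunit alpha 6, had 101, 147, 126 and 123 CPM, Plek2, a pleckstrin relative, 30.3, 64.7, 58.4 and 60.0 CPM, and Lfng, a glycosyltransferase acting on Notch, 10.2, 17.8, 12.1 and 13.7 CPM.

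To see in which cells the 6 h level was higher, cells were clustered with the 100 genes left out. Of 13 clusters, 7 had at least 50 cells at both 0 and 6 h. They were cluster 0 (led by Fabp1 and Gstm3), cluster 1, cycling-like (Ube2c, Cdc20, Ccnb1), cluster 2 (Slc5a4b, Reg3a, Cyp3a11), cluster 3 (Uhrf1, Mcm3, genes of DNA replication), cluster 6 (Rbp7, Hsd11b2), cluster 8, villus tip-like (Ada, Slc28a2, Clca4a), and cluster 11 (Tff3, Reg4, with goblet and enteroendocrine genes). In them 98, 100, 93, 99, 96, 88 and 85 of the 100 genes were higher at 6 h than at 0 h. These are the cells whose counts chose the genes, so the counts describe where the chosen difference lay and support nothing further. In all 7 clusters at once 70 of the genes were higher, and 21 more were higher in 6. The mix of cells differed between the times. From 0 to 24 h cluster 0 went from 30.2 to 1.17% of cells and cluster 3 from 20.05 to 0.451%. Clusters 4 and 7, not among the 7, went from 0.853 to 28.1% and from 0.819 to 17.3%, while cluster 8 had 3.72 and 3.83%. The part of this mix in the levels at 15 and 24 h was not tested.

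Among the 7 clusters read, single genes differed in where they were high. The 6 clusters left out were not read, among them clusters 5 and 12 with 208 and 157 cells at 6 h. Fkbp5 went from 0.796 to 24.1 and back to 0.958 CPM at 0, 6 and 15 h in cluster 0, and from 0.491 to 30.5 and 0.896 CPM in cluster 2. In the cycling-like cluster 1 it started at 9.66 CPM, reached 16.2 at 6 h and stood at 4.82 at 15 h, and in cluster 11 it had 12.2 and 9.56 CPM at 0 and 6 h. Of the 7 clusters, Dact3 lay mainly in clusters 1, 3 and 11. It had 0.585 and 18.2 CPM at 0 and 6 h in cluster 1, 0.889 and 15.1 CPM in cluster 3, and 1.53 and 14.1 CPM in cluster 11. In clusters 0 and 2 it had 0.849 and 0.555 CPM at 6 h. Apobec2 showed a like distribution, with 14.0 CPM at 6 h in cluster 1, 21.4 in cluster 3, 9.42 in cluster 11 and 0.555 in cluster 2. Cyp2b10 was highest in clusters 0 and 2, with 787 and 918 CPM at 6 h against 273 and 463 CPM at 0 h, and reached 40.3 CPM in cluster 1. Clusters 0 and 2 had enterocyte markers at a median of 2.14-fold and 3.54-fold over the other cells. Scd2 was higher at 6 h in each of the 7 clusters.

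**Figure D3:**
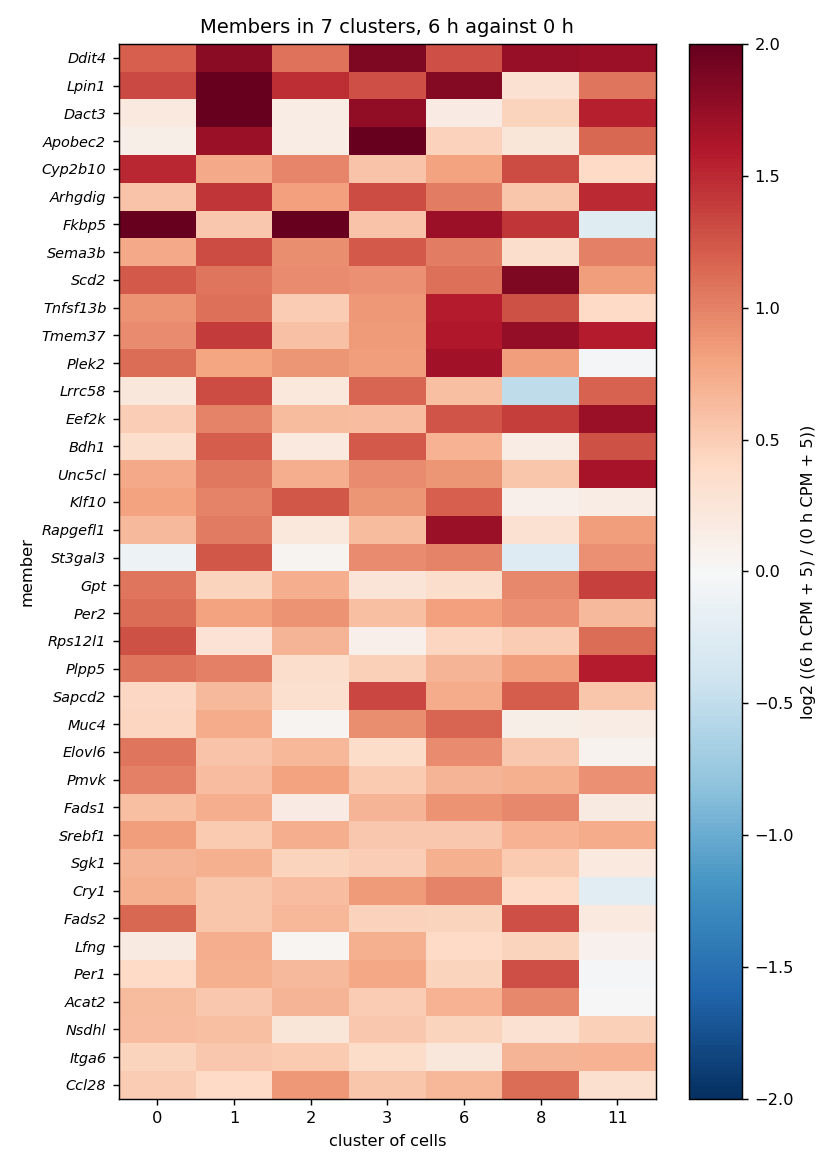
Heat map of log2((CPM at 6 h + 5)/(CPM at 0 h + 5)) for 38 of the genes (rows) in the 7 clusters with at least 50 cells at both times (columns), with the colour scale capped at -2 and 2. Most entries are above 0, with Dact3 and Apobec2 highest in clusters 1 and 3 and Fkbp5 highest in clusters 0 and 2.

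The D7 bulk libraries gave an independent measurement at the end of 24 h of TGFB1. Those of D11 IR had the same 24 h from day 6 and were collected days after it had ended. Of the 100 genes, 96 were found in the bulk tables and 91 passed the filter of a mean of 1 FPKM in at least 1 table. Ccl28 and Defa42 were listed at 0 in all 18 libraries, and Defa31, Ceacam2 and Sap18b were under the filter throughout. At D7 non-IR, 53 of 89 tested genes (59.6%) were called higher with TGFB1 and 25 (28.1%) lower by limma at an adjusted p under 0.05, where 33.3% of all genes tested were called higher and 34.9% lower. At D7 IR, 47 of 91 (51.6%) were higher and 28 (30.8%) lower, against 35.8% and 39.7%. At D11 IR, 34 of 87 (39.1%) were higher and 29 (33.3%) lower, against 32.3% and 31.6%. The median log2 change of the tested genes was 0.33, 0.17 and 0.04, against -0.02, -0.03 and 0.01 for all genes. In bulk libraries fewer cells of a type and less RNA per cell cannot be told apart.

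Changes of 2-fold or more were fewer. At D7 non-IR 12 genes rose and 3 fell that much, where 5.52% and 2.92% of all genes did. At D7 IR 11 rose and 6 fell, against 7.79% and 5.39%, and at D11 IR 6 rose and 8 fell, against 5.67% and 8.04%.

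Whether a gene was higher or lower at D7 ran with its level at 24 h in the single cells. Of the 24 genes that were at or below their 0 h level by then, 17 were tested at D7 non-IR, where 1 rose (Tspan1) and 14 fell, with a median log2 change of -0.42. At D7 IR 18 were tested, of which 1 rose (Pllp) and 15 fell, with a median of -0.65. Of the 42 genes that had kept over 50% of the rise, 34 rose at D7 non-IR and 3 fell (Sulf2, Plekhd1 and Mertk), and 34 rose at D7 IR and 2 fell (Plekhd1 and Mertk), with medians of 0.48 and 0.38. The 34 genes in between gave 18 higher and 8 lower of 30 at D7 non-IR, and 12 higher and 11 lower of 31 at D7 IR. At D11 IR the same groups were mixed, with 5 higher and 8 lower of 18, 12 higher and 10 lower of 30, and 17 higher and 11 lower of 39.

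**Figure D4:**
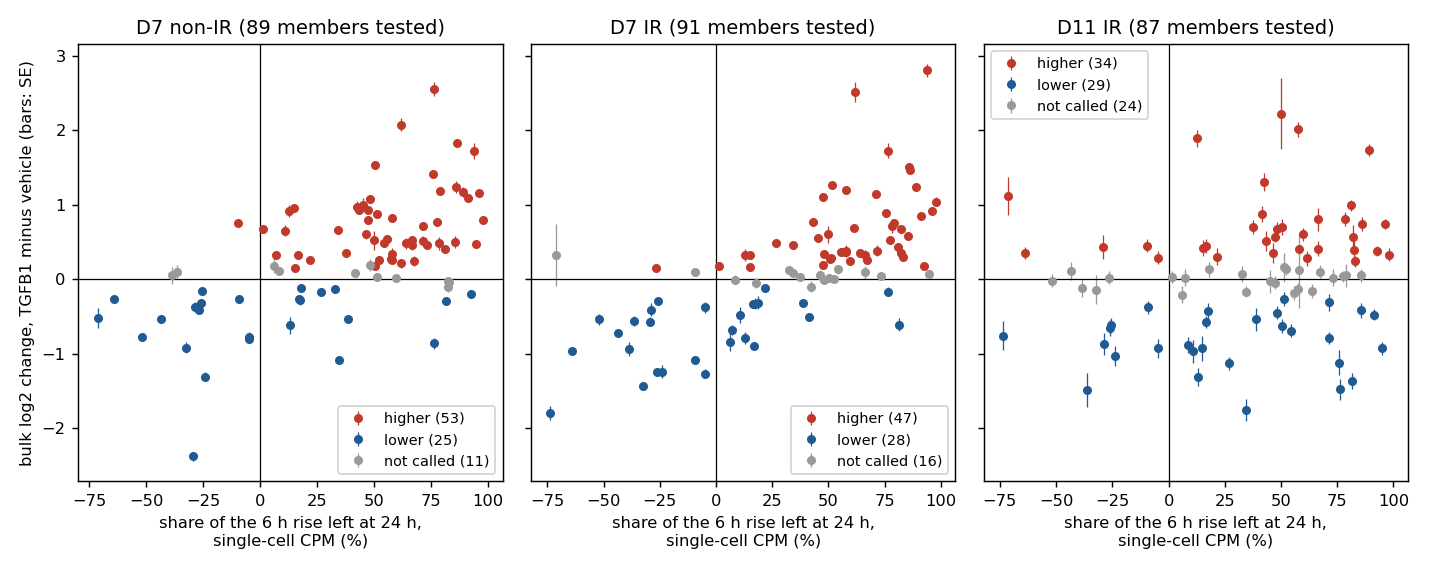
Bulk log2 change with TGFB1, with its SE (vertical axes), against the share of the 6 h rise left at 24 h in the single cells (horizontal axes, percent) for the tested genes, in 1 panel per bulk table and coloured by the limma call. In both D7 panels most points left of 0% lie below the zero line and most right of 50% above it; at D11 IR the points are mixed.

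Dact3, Apobec2 and Tnfsf13b rose in both D7 tables. Apobec2 had 0.940, 0.588 and 0.928 FPKM with vehicle and 11.9, 11.2 and 11.8 FPKM with TGFB1 at D7 IR. The groups did not overlap, and the log2(FPKM + 1) change was 2.80 (SE 0.0881, limma adjusted p = 1.02e-09, n = 3 each). Dact3 had 0.244, 0.216 and 0.265 FPKM with vehicle and 6.97, 7.03 and 4.51 FPKM with TGFB1 there, a change of 2.51 (SE 0.136, limma adjusted p = 5.89e-08). At D7 non-IR Tnfsf13b had 0.468, 0.332 and 0.656 FPKM against 7.32, 7.61 and 8.10 FPKM, a change of 2.55 (SE 0.089, limma adjusted p = 1.28e-09). All 3 were under 1 FPKM with vehicle and passed the filter through their TGFB1 libraries, so a difference was built into their being tested. None of the 3 passed it at D11 IR. There the groups of Apobec2 overlapped, whereas those of Dact3 (0.172 to 0.670 FPKM with vehicle and 0.958 to 1.37 FPKM with TGFB1) and Tnfsf13b (0.348 to 0.637 and 0.974 to 1.52 FPKM) did not.

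Ddit4 and Klf10 rose in both D7 tables and were not called higher at D11 IR. Ddit4 had 44.6, 43.2 and 45.2 FPKM with vehicle and 106, 105 and 113 FPKM with TGFB1 at D7 IR, a change of 1.26 (SE 0.0416, limma adjusted p = 1.39e-09). At D11 IR its groups overlapped, with a change of 0.16 (SE 0.192, limma adjusted p = 0.491) that became 0.37 (limma adjusted p = 0.0414) without TGFB1 replicate 3. Klf10 had 15.5, 14.6 and 15.7 FPKM with vehicle and 34.0, 34.9 and 36.0 FPKM with TGFB1 at D7 IR, a change of 1.14 (SE 0.046). At D11 IR the order was the opposite, with 28.3, 25.6 and 24.9 FPKM against 16.0, 14.6 and 13.8 FPKM, a change of -0.79 (SE 0.083, limma adjusted p = 2.65e-05), again without overlap. Over the TGFB feedback list, Klf10 included, 16 of 19 tested genes rose at D7 non-IR, 17 of 19 at D7 IR and 11 of 20 at D11 IR, where 33.3, 35.8 and 32.3% of all genes did.

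**Figure D5:**
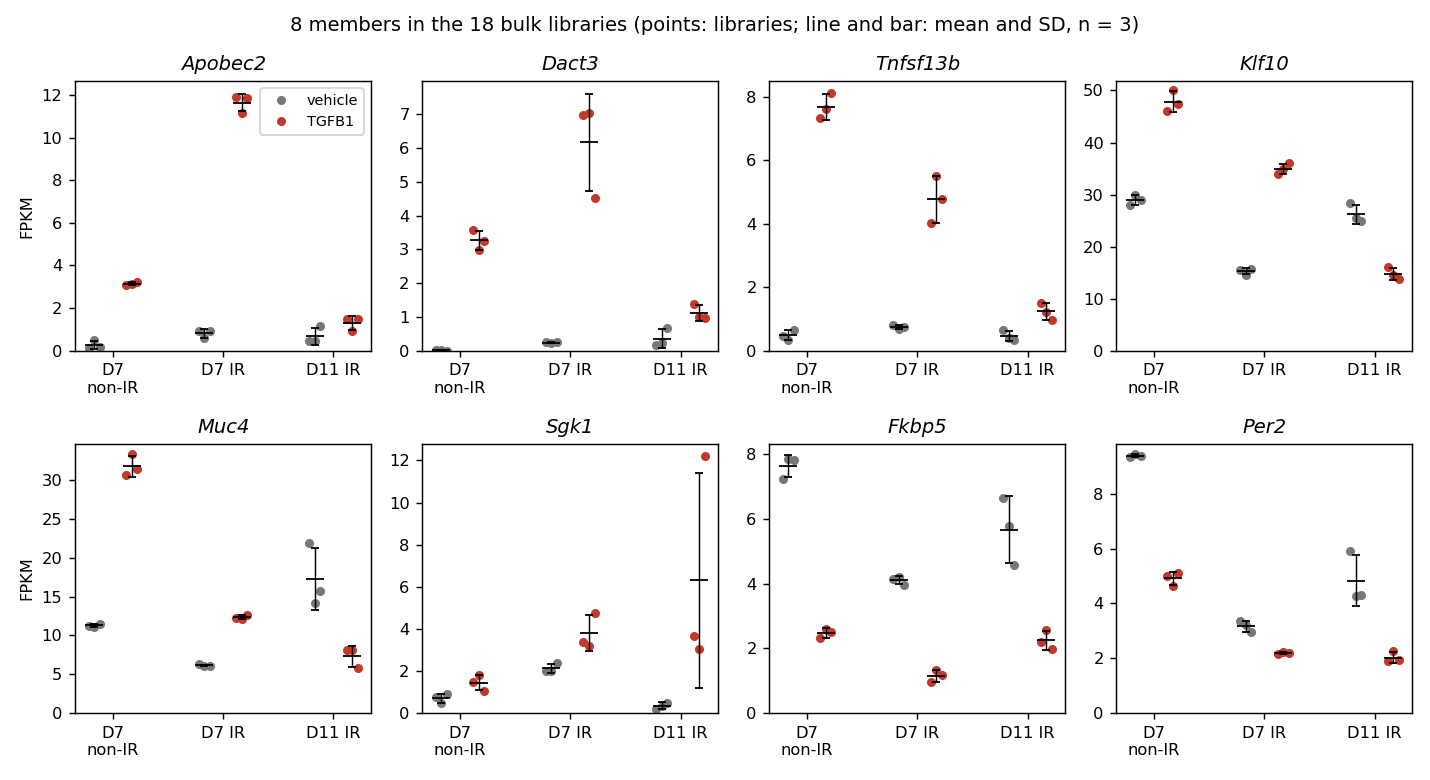
FPKM per library (points) with mean and SD (n = 3 per group) for 8 of the genes, by table and treatment. Apobec2, Dact3, Tnfsf13b and Klf10 are higher with TGFB1 in both D7 tables, Fkbp5 and Per2 are lower in all 3, and Klf10 and Muc4 are lower with TGFB1 at D11 IR.

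Of the genes that had returned by 15 or 24 h, Fkbp5 fell in all 3 tables: at D7 IR it had 4.15, 4.19 and 3.95 FPKM with vehicle and 0.958, 1.34 and 1.18 FPKM with TGFB1. No groups overlapped, and the changes were -1.31 (SE 0.0628), -1.24 (SE 0.0859) and -1.03 (SE 0.132) at D7 non-IR, D7 IR and D11 IR, with limma adjusted p of 1.47e-08, 2.85e-07 and 9.59e-05. Per2 fell in all 3 as well, by 0.81, 0.38 and 0.93 on the log2 scale. Cry1 fell by 0.77 and 0.54 at D7 and did not pass at D11 IR (-0.02, limma adjusted p = 0.841). Per1 did not pass in the D7 tables (0.11 and -0.01) and fell by 0.88 at D11 IR. Over the clock list, 10 of 15 tested genes fell and 1 rose at D7 non-IR, 8 fell and 0 rose at D7 IR, and 8 fell and 1 rose at D11 IR, where 34.9, 39.7 and 31.6% of all genes fell. Of the glucocorticoid-responsive genes 5 of 13 tested rose and 5 fell at D7 non-IR, and 6 rose and 5 fell of 13 at D7 IR. At D11 IR 4 of 14 rose and 6 fell. Of all genes 33.3, 35.8 and 32.3% rose in the 3 tables.

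Sgk1 rose in all 3 tables, and at D11 IR vehicle libraries had 0.201, 0.366 and 0.516 FPKM and TGFB1 libraries 3.68, 3.06 and 12.2 FPKM. TGFB1 replicate 3 stood far above the other 2, and the change of 2.22 (SE 0.475, limma adjusted p = 0.00933) was 1.69 without it. There and at D7 non-IR its vehicle mean was under 1 FPKM and it passed the filter through its TGFB1 libraries, so a difference was built into its being tested. The D7 changes of 0.52 and 0.60 lost their call when all 18 libraries were fitted together (limma adjusted p = 0.177 and 0.104).

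Scd2 differed in direction between the tables. It had 811, 822 and 791 FPKM with vehicle and 820, 870 and 869 FPKM with TGFB1 at D7 non-IR, which did not pass (0.08, limma adjusted p = 0.0512, called without TGFB1 replicate 1). At D7 IR it fell from 544, 512 and 526 FPKM to 367, 381 and 361 FPKM, a change of -0.51, and at D11 IR it rose from 168, 186 and 196 FPKM to 328, 373 and 310 FPKM, a change of 0.87. Fads1 fell in all 3 tables (-0.27, -0.90 and -0.58). Fads2 did too (-0.27, -1.09 and -0.38), though its D11 IR change was -0.15 with quantile normalization (limma adjusted p = 0.166). Srebf1 rose by 0.26 at D7 non-IR, and its values of -0.00 and 0.13 in the other tables did not pass. Lpin1 did not pass at D7 non-IR (0.03), rose at D7 IR (0.28) and fell at D11 IR (-0.27, limma adjusted p = 0.0271, lost without TGFB1 replicate 1 at 0.0978, without TGFB1 replicate 2 at 0.0757 and without vehicle replicate 2 at 0.111). Elovl6 rose at D7 IR (0.24) and D11 IR (0.60). Of 22 fatty acid genes 8 rose and 8 fell at D7 non-IR, 8 rose and 12 fell at D7 IR, and 7 rose and 8 fell at D11 IR. At D7 non-IR and D11 IR these counts were near the shares of all genes called. Of the 11 sterol genes, Acat2, Pmvk and Nsdhl included, 10 rose and 0 fell at D7 non-IR, against 1 and 5 at D7 IR and 3 and 0 at D11 IR. Of all genes 33.3, 35.8 and 32.3% rose and 34.9, 39.7 and 31.6% fell in the 3 tables. At D11 IR the count of sterol genes that rose was near that share. Acat2 and Nsdhl went with the sterol counts at D7, rising by 0.33 each at D7 non-IR and falling by 0.68 and 0.34 at D7 IR.

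Of the absorptive and secretory genes, Cyp2b10 fell at D7 IR from 104, 105 and 110 FPKM to 42.1, 37.0 and 37.4 FPKM, a change of -1.44 (SE 0.0524, limma adjusted p = 2.7e-09). It fell by 0.92 at D7 non-IR, and at D11 IR the groups overlapped. Dmbt1 fell in all 3 tables (-0.32, -1.25 and -0.66). Zg16 fell from 91.2, 82.8 and 75.2 FPKM to 15.6, 14.2 and 15.5 FPKM at D7 non-IR, a change of -2.38 (SE 0.0659, limma adjusted p = 4.85e-10), and by 0.57 at D7 IR. Of the 7 goblet markers, Zg16 included, 7 fell at D7 non-IR and 6 at D7 IR, where 34.9 and 39.7% of all genes fell. Their sums at D7 non-IR were 6280 to 6640 FPKM for vehicle and 4710 to 5110 FPKM for TGFB1. At D11 IR 4 of the 7 fell and 1, Zg16, rose, where 31.6% of all genes fell and 32.3% rose. Their sums there were 3240 to 3950 FPKM for vehicle and 2340 to 2550 FPKM for TGFB1. Muc4 rose by 1.41 and 0.89 at D7 and fell at D11 IR, from 21.8, 14.2 and 15.8 FPKM to 8.15, 8.10 and 5.79 FPKM (-1.12, SE 0.17).

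By pattern, 17 genes rose in all 3 tables, among them Plek2 (1.83, 1.46 and 0.74), Itga6 (1.07, 0.34 and 0.67) and Smad5 (0.53, 0.32 and 0.41). A further 22 rose in both D7 tables and were not called higher at D11 IR, and 12 fell in all 3. Among the 22, Dact3, Apobec2 and Tnfsf13b were under the filter at D11 IR and were not tested there. Calls of opposite direction at D7 and D11 were made for 9 genes: Arhgdig, Sema3b, Klf10, Muc4, Camk2b and Bcl11a rose and then fell, and Sapcd2, Zg16 and Pdia6 fell and then rose. The Sapcd2 call at D11 IR (0.29) was lost without TGFB1 replicate 2, and the Zg16 groups overlapped there (0.43, limma adjusted p = 0.0429). At D7 non-IR Camk2b had a mean of 0.751 FPKM with vehicle and 1.47 FPKM with TGFB1. It passed the filter there through its TGFB1 libraries, so a difference was built into its being tested. The same patterns were not counted over all genes, so whether the pattern counts are unusual was not tested. At D7 non-IR, D7 IR and D11 IR, 33.3, 35.8 and 32.3% of all genes rose and 34.9, 39.7 and 31.6% fell.

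The effect of TGFB1 itself was compared between organoids by interaction terms over 12 libraries each. After irradiation at D7, the effect was higher for 24 of 91 genes (26.4%) and lower for 45 (49.5%), where 25.3% and 27.8% of all genes were. Differences of 2-fold or more were found for 3 and 5 genes, against 2.53% and 1.85% of all. The median difference was -0.17 for the tested genes and -0.01 for all. Zg16 differed most, by 1.81 (SE 0.101, limma adjusted p = 7.78e-09), having fallen less in irradiated organoids. Kcnn4, a calcium-activated potassium channel, rose by 1.53 without and 0.27 with irradiation, a difference of -1.26 (SE 0.0653). Gpt, alanine aminotransferase, fell by 1.09 without irradiation and did not pass with it, a difference of 1.17 (SE 0.0618).

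Between D11 and D7 in irradiated organoids, the effect was higher for 30 of 91 genes (33.0%) and lower for 38 (41.8%), where 31.5% and 33.0% of all genes were. Of these, 9 and 13 differed 2-fold or more, against 6.83% and 9.58% of all. The median difference was -0.14 against -0.01. The effects on Apobec2 (-2.34, SE 0.213), Muc4 (-2.01, SE 0.191), Klf10 (-1.93, SE 0.0932) and Dact3 (-1.86, SE 0.223) were lower at D11. Apobec2 and Dact3 were under the filter at D11 IR and entered this term through their D7 IR libraries with TGFB1, so a lower effect at D11 was built into their being tested. Those on Cpne2, a copine (1.63, SE 0.128), and Slco3a1, an organic anion transporter (1.57), were higher. At D11 IR Cpne2 had 2.34, 1.94 and 1.95 FPKM with vehicle and 12.3, 11.1 and 10.7 FPKM with TGFB1.

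In the sorted Ki67-RFP+ crypt cells, 86 of the genes had a mean of at least 5 CPM. Both irradiated libraries were at least 2-fold above the non-irradiated one for 10 of them (11.6%), where 10.4% of all genes were. They were at least 2-fold below for 14 (16.3%), where 4.69% were, and 5 of these 14 are the multi-copy genes Defa31, Defa3, Defa42, Ceacam2 and Sap18b. There is 1 non-irradiated library, so no test was made. Sulf2, an extracellular sulfatase, had 2.77 CPM without irradiation and 70.2 and 80.2 CPM after it. Plek2 had 29.0 against 87.2 and 80.7 CPM, and Cpne2 2.29 against 13.8 and 15.2 CPM. Dmbt1 had 2379 against 474 and 341 CPM, and Pycard, an inflammasome adaptor, 1586 against 378 and 331 CPM. Dact3 was all but undetected, with 1, 0 and 2 UMIs in the 3 libraries.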

How the data were processed

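Bulk expression was deposited by the authors as FPKM, 1 table per condition with 6 libraries and 23951 genes each, and 0 sample columns were left unmapped. The deposited single-cell matrices hold expected counts of UMIs, with fractions where a UMI was shared between genes. The submitters' processing notes list TopHat2 2.1.0, Cuffnorm 2.2.1 and STARsolo (STAR 2.7.10a) without assigning them to files. Read depth of the bulk libraries is unknown, and their FPKM summed to 447728 to 621996. FPKM were tested as log2(FPKM + 1) with limma 3.58.1 (R 4.3.3; trend, robust) in each table, leaving out genes whose mean was below 1 FPKM, with Benjamini-Hochberg adjustment over all of them, two-sided, threshold 0.05. Tables were normalized separately, so levels are compared within a table. Fold changes on this scale are understated for low genes. The script was tested on simulated data.

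UMIs were summed per symbol and not rounded. Cells were clustered with scanpy 1.11.5 on 2000 variable genes, 30 components, 15 neighbours and a Leiden resolution of 0.6. Values of a cluster with under 50 cells at a time were left out. Doublets were not called. ATAC peaks were not used here, and the labels give no batches. The genes and lists were chosen with earlier results of these data known. Genes named are the 25 with the highest ratio, the 10 largest called changes per bulk comparison, members of the lists and those at rank 100, and others were chosen after their values were seen. Alternatives were other pseudocounts, filters, normalization, a replicate block, 1 fit of all 18 libraries, each library left out, and other forms of the rule. Other gene lists examined are not reported here.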

Additional observations from a re-analysis of the deposited data

Results flagged for a closer look

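The following results differ between groups by the interaction terms in limma, and their causes were not tested. With irradiation at D7, the TGFB1 effect was higher for 24 and lower for 45 of the 91 tested genes. The largest log2 differences (irradiated minus non-irradiated) were 1.81 for Zg16, -1.26 for Kcnn4, 1.17 for Gpt, -1.13 for Rassf5 and 1.08 for Apobec2. They were followed by Dmpk at -1.07, Gls2 at -1.02, Acat2 at -1.01, Slc16a12 at -0.99 and Dmbt1 at -0.93. Apobec2 was under 1 FPKM with vehicle, and its difference was 0.43 (limma adjusted p = 0.375) with a pseudocount of 0.1 FPKM.

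Between D11 and D7 after irradiation, the effect was higher for 30 and lower for 38 genes. The largest differences (D11 minus D7) were -2.34 for Apobec2, -2.01 for Muc4, -1.93 for Klf10, -1.86 for Dact3 and -1.84 for Gpt. Apobec2 and Dact3 entered this term through their D7 IR libraries with TGFB1 and were under the filter at D11 IR. Those of Cpne2 at 1.63, Sgk1 at 1.62, Glrx at -1.62, Slco3a1 at 1.57 and Sapcd2 at 1.56 followed. The value of Sgk1 rests in part on TGFB1 replicate 3 at D11 IR, which had 12.2 FPKM against 3.68 and 3.06 FPKM in the other 2. Groups of 3 libraries were not searched for single outlying samples.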

How the results depend on the processing

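The list itself depends on the rule: 67 of the 100 genes were shared with a pseudocount of 1 CPM, 71 with 20 CPM, 76 when only whole entries were counted, 82 with means of per-cell CPM, and 91 or more under the other forms. With names dropped after the 100 were taken, 61 remained. Calls of at least 2-fold numbered 12 higher and 3 lower at D7 non-IR, 11 and 6 at D7 IR, 6 and 8 at D11 IR, 3 and 5 for irradiation, and 9 and 13 for day. Leaving out 1 library at a time gave 52 to 56 higher and 24 to 25 lower at D7 non-IR, 46 to 49 and 27 to 28 at D7 IR, 29 to 33 and 26 to 31 at D11 IR, 20 to 24 and 42 to 45 for irradiation, and 29 to 32 and 35 to 42 for day. The replicate block gave 53 and 25, 47 and 28, 34 and 29, 22 and 45, and 32 and 41 in the same order. Replicate numbers did not pair the libraries: deviations of same-numbered libraries correlated at -0.029, 0.162 and 0.048 at D7 non-IR, 0.075, 0.213 and 0.024 at D7 IR, and -0.086, -0.025 and 0.095 at D11 IR. Of 2762 checks of named genes, 2698 kept direction and call, 49 lost and 14 gained a call, and 1 reversed: the irradiation term of Dact3 was 0.44 with a pseudocount of 1 FPKM and -0.74 (limma adjusted p = 0.0338) with 0.1 FPKM, its vehicle values being under 1 FPKM. Each time had 1 single-cell library, so no replicate error stands behind the time course, and Poisson intervals cover counting error only.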
